A study of Ovis aries with 36 samples.

Results

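The CHI3L1 locus is 1 of the 31136 loci counted in sheep skeletal muscle. It is the merged locus XLOC_005333, on chromosome 12 from 344371 to 366834 of the Oar_v3.1 assembly, and it joins 2 Ensembl gene identifiers, ENSOARG00000001277 and ENSOARG00000001370, that the deposited tables count together. The locus was selected on its measured counts in Semitendinosus (ST) and Supraspinatus (SS), since CHI3L1 is listed by the study as differentially expressed between them. Its values in ST and SS are therefore given below as a description without a test.

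RNA-Seq was performed on 9 muscles of each of 4 unrelated male Poll Dorset cross-bred lambs, slaughtered at 14 months of age with live weights of 67 to 72 kg, giving 36 samples. Beside ST and SS, the muscles were Longissimus lumborum (LL) and Psoas major (PM) of the loin, and Semimembranosus (SM), Adductor (AD), Gluteus medius (GM), Rectus femoris (RF) and the cranial part of Gluteobiceps (GB) of the hindlimb. All animals received soy crop and sorghum grain after weaning and no experimental treatment, and each sample came from the middle of the superficial belly, so that 1 site stands for a whole muscle. The 4 lambs are the biological replicates, and each lamb gave all 9 muscles. Animals 1 to 4 below are the replicate numbers of the sample titles, taken as the same lamb in every muscle.

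CHI3L1 encodes a secreted glycoprotein of the chitinase family that binds chitin-like sugars but has lost the enzyme activity. It is made by macrophages, neutrophils, cartilage cells and vascular smooth muscle cells, rises in serum in inflammation and tissue remodelling, and is also released by cultured skeletal muscle cells. Whole muscle holds fibres together with other cell types, and which of them these samples held was not tested. In such bulk samples fewer cells that express a gene and less RNA per cell cannot be told apart.

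The locus spans 22464 bases, and no other locus overlaps it. The position that the study gives for CHI3L1 lies inside the locus and ends where the locus ends, which leaves its first stretch outside the named gene. In the RefSeq annotation of another sheep assembly, ARS-UI_Ramb_v3.0, the order of genes on chromosome 12 is MYOG, ADORA1, MYBPH and CHI3L1, followed by an unnamed gene, BTG2 and FMOD. CHI3L1 thus lies there between MYBPH, which encodes myosin binding protein H of the sarcomere, and the unnamed gene. The tables do not pair either Ensembl identifier with a symbol. Whether the reads of the merged locus come from CHI3L1, from a neighbour or from both cannot be told apart. The values below are therefore those of the locus as counted.

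Library totals ranged from 3699148 to 6427422 counts, with a median of 5905901.5. Between 65.7% and 78.3% of the counts of a library fell in the 4 most counted loci, and the TMM factors, which correct the library sizes for such loci, ranged from 0.666 to 1.33. The locus itself received a median of 277.5 counts, from 15 in the lowest sample to 566 in the highest. Levels are given as CPM, the counts scaled to a common library size, on the TMM-scaled library sizes, on which 3 counts, taken as the floor, are 0.365 to 1.02 CPM. All 36 values were above the floor of their own library.

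The upper part of the range was formed by 5 muscles. In LL the level was 64.1, 67.0, 81.7 and 79.0 CPM in animals 1 to 4, with a mean of 72.9 ± 8.67 CPM (SD, n = 4). In SM it was 80.7, 28.6, 99.4 and 70.0 CPM, with a mean of 69.7 ± 30.0 CPM. LL was the most even muscle, with a coefficient of variation of 11.9%, whereas in SM animal 2 stood far below the other animals. In AD the level was 72.2, 45.1, 72.3 and 53.0 CPM (mean 60.7 ± 13.7). In GM it was 86.8, 38.2, 70.1 and 46.4 CPM (mean 60.4 ± 22.2). In ST it was 76.7, 30.5, 65.0 and 66.5 CPM (mean 59.7 ± 20.1). The ranges of these 5 muscles overlapped one another, and animal 2 held the lowest value in all of them except LL.

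PM and GB were intermediate. In PM the level was 57.1, 23.2, 50.8 and 40.0 CPM in animals 1 to 4 (mean 42.7 ± 14.8). In GB it was 27.4, 21.2, 72.0 and 40.3 CPM (mean 40.2 ± 22.6). In GB animal 3 was the highest and animal 1 was close to animal 2, an order not seen in PM.

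RF and SS were low. In RF the level was 49.1, 7.13, 14.1 and 11.1 CPM, with a mean of 20.4 ± 19.4 CPM (SD, n = 4) that rested on animal 1, the only animal above 15 CPM. In SS it was 10.1, 2.18, 3.19 and 3.47 CPM, with a mean of 4.72 ± 3.60 CPM, and again animal 1 was the highest. The SS values came from 44, 15, 18 and 18 counts. For the lowest of them, the 95% exact (Clopper-Pearson) interval of the share of the library was 1.46 to 4.29 CPM before TMM scaling, which covers counting error only. SS overlapped with RF through animal 1 and with no other muscle.

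**Figure D1:**
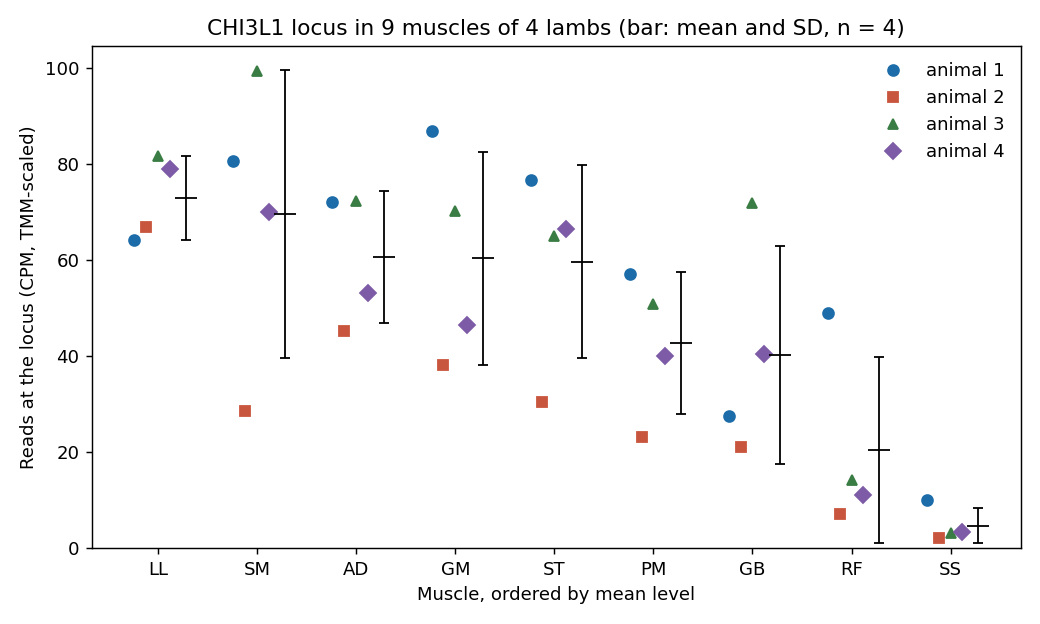
Level of the CHI3L1 locus (CPM on TMM-scaled library sizes, linear axis from 0) in each of the 36 samples, with the 9 muscles on the horizontal axis ordered by mean, symbols for the 4 animals, and a bar for the mean and SD of each muscle (n = 4). LL holds 4 close values between 64.1 and 81.7 CPM, 3 of the 4 RF values lie at or below 14.1 CPM, and no SS value exceeds 10.1 CPM.

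The order of the means was LL, SM, AD, GM, ST, PM, GB, RF and SS. The mean of LL was 15.4 times and that of RF 4.31 times the mean of SS. SS was the lowest muscle in 4 of 4 animals. RF was the second lowest in 3 of 4 animals and ranked 7 of 9 in animal 1, where GB was lower. The top of the order was not shared, since the highest muscle was GM in animal 1, LL in animals 2 and 4, and SM in animal 3. The ratio of the highest muscle to SS within an animal was 8.63, 30.8, 31.2 and 22.8 in animals 1 to 4, and animal 1, with the highest SS value, had the smallest ratio.

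Relative to SS, the fitted log2 fold change (log2FC, muscle minus SS, from a model with muscle and animal) was 3.73 for ST, on which the choice of the locus rests. Of all loci, 2.3% were called between ST and SS. The other log2FC over SS were 4.15 for LL, 3.92 for SM, 3.81 for AD, 3.75 for GM, 3.24 for PM, 3.18 for GB and 2.04 for RF. These share the SS samples with the choice and are values only. In all 8 of these pairs SS was lower in 4 of 4 animals. ST itself was placed among the upper muscles. Its fitted level was below GM by a log2FC of 0.016, below AD by 0.077 and below LL by 0.42, and above RF by 1.69.

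The comparison that the choice of the locus did not use is among the 7 muscles other than ST and SS. Its question is whether the level of the locus differed among muscles beyond the most contrasting pair. The level differed among these 7 muscles, with an FDR of 0.000293 in the joint edgeR quasi-likelihood test with Benjamini-Hochberg adjustment over all 12461 loci tested. Of all loci, 3.61% passed an FDR of 0.01 in this test. The study also lists CHI3L1 as higher in SM and in LL than in SS. Without SM and LL, the FDR among the remaining 5 muscles was 0.00295, where 1.08% of loci passed. The test among the 7 muscles did not pass 0.01 without animal 2 (FDR 0.0160) or without animal 4 (FDR 0.0294).

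Among the 21 pairs of these 7 muscles the locus was called in 4, and RF was the lower muscle in each of them. A locus was called where its FDR did not exceed 0.01 and its log2FC was above 1 in either direction, and between 0% and 1.07% of all loci met both in a pair. LL was above RF by a log2FC of 2.11 (4.31-fold, FDR 3.6e-05), SM by 1.88 (3.67-fold, FDR 0.000406), AD by 1.77 (3.40-fold, FDR 0.00125) and GM by 1.71 (3.26-fold, FDR 0.00128). The level was higher than in RF in 4 of 4 animals in each of these pairs. The shares of all loci called in them were 0.778%, 0.859%, 0.233% and 0.377%. RF and LL did not overlap, whereas the other 3 muscles overlapped with RF through the RF value of animal 1. Overlap is described here without its share over all loci.

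Within animals, LL exceeded RF by 0.38, 3.17, 2.50 and 2.80 on the log2 scale in animals 1 to 4, with a mean of 2.21 ± 1.25 (SD, n = 4). GM exceeded RF by 0.82, 2.37, 2.28 and 2.03. The difference was thus smallest in animal 1 in both pairs. PM was above RF by a log2FC of 1.20 in 4 of 4 animals but was not called (FDR 0.0316, 0.49% of all loci called). GB was above RF by 1.14 in 3 of 4 animals and was not called (FDR 0.0956, 0.169% of all loci called).

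Which of the pairs were called depended on single animals. Without animal 1 the locus was called in 7 of the 21 pairs, and without animals 2, 3 and 4 in 2, 1 and 1. LL over RF was called in each of these. Without the single library of RF from animal 1, which is a choice made after its value was seen, 6 pairs were called, namely those of RF with each of the other 6 muscles.

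**Figure D2:**
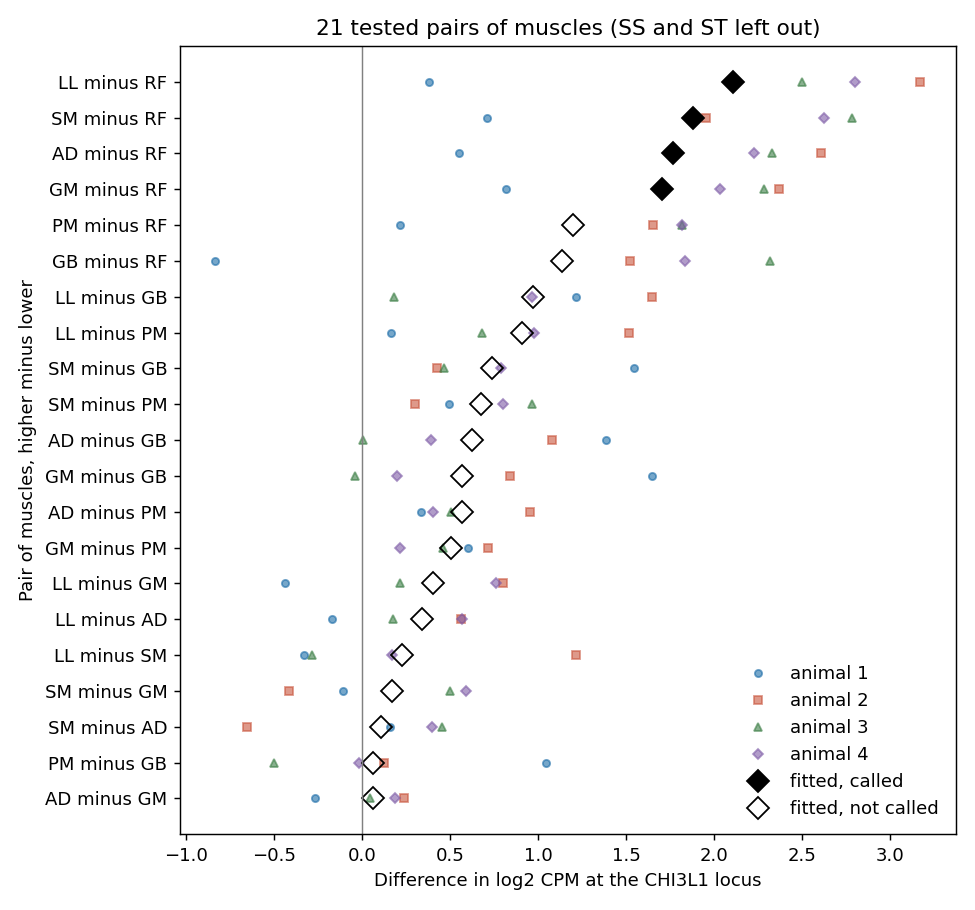
Difference in log2 CPM at the CHI3L1 locus for the 21 tested pairs of muscles, each as the higher minus the lower muscle of the fit, with small symbols for the 4 animals and diamonds for the fitted log2FC (filled where the pair was called). The 4 filled diamonds, from 1.71 to 2.11, are all differences from RF, and animal 1 gives the smallest difference in each of them.

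In the 15 pairs without RF the locus was called in 0, by edgeR's quasi-likelihood test, although 5 of them had an unadjusted p below 0.05. Over all loci, 0.307% of the tests in these pairs were calls. The largest log2FC among them was 0.97, for LL over GB (FDR 0.0838, LL higher in 4 of 4 animals). LL exceeded PM by 0.91 (FDR 0.165). These were the only 2 of the 6 muscles whose values did not overlap, which is again given without a share over all loci. Neighbours in the order of means that could be tested were not called, with an FDR of 0.712 for LL and SM, 0.884 for SM and AD, 0.962 for AD and GM, and 0.971 for PM and GB. Across the step from the upper to the intermediate muscles, GM exceeded PM in 4 of 4 animals, with a within-animal difference of 0.50 ± 0.22 on the log2 scale (SD, n = 4), and was not called (FDR 0.490). ST exceeded PM in 4 of 4 animals by 0.48 ± 0.17, a value without a test. In the joint test of the 6 muscles without RF, chosen after the RF values were seen, the FDR was 0.0951, where 2.66% of loci passed 0.01.

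The animals differed as well. The level of the locus differed among the 4 animals (FDR 8.93e-05), in a test that 17% of all loci passed at 0.01. The lambs came from different flocks, and the libraries ran in 4 lanes of 9 samples. Since the lane of each sample is not given, a difference among animals cannot be told apart from one among lanes. Animal 2 was the lowest in 8 of 9 muscles, the exception being LL, where animal 1 was lowest. Animal 1 was the highest in 5 muscles and animal 3 in the other 4. The fitted log2FC relative to animal 1 was -1.25 for animal 2, -0.21 for animal 3 and -0.58 for animal 4, and the geometric means over the 9 muscles were 50.4, 21.6, 43.2 and 34.4 CPM for animals 1 to 4. Without animal 2 the FDR was 0.112, so that the difference among animals was not called among the other three.

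**Figure D3:**
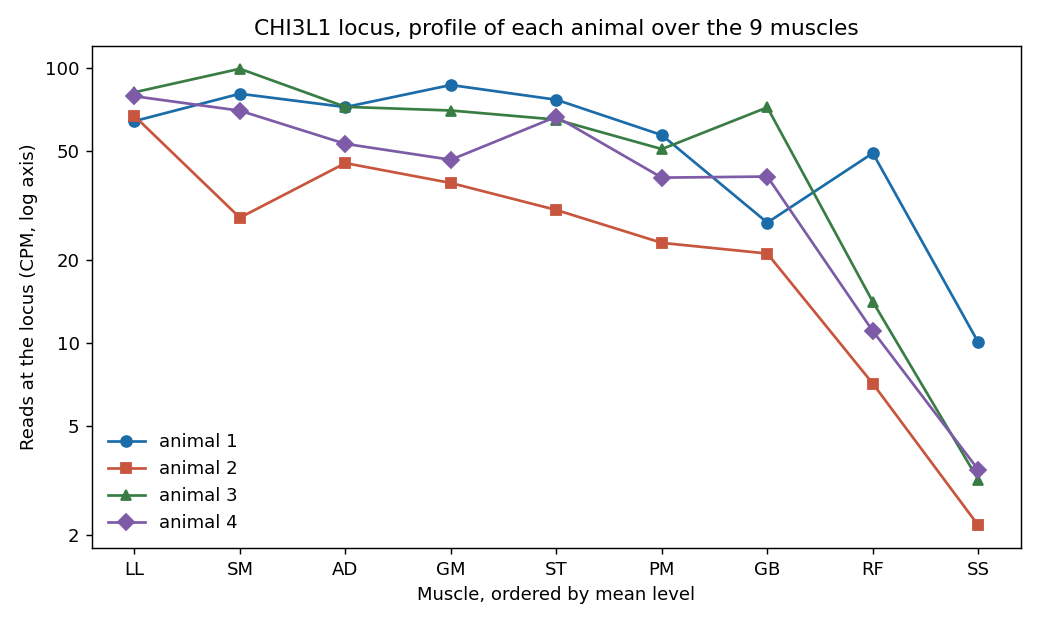
Level of the CHI3L1 locus (CPM, log axis) over the 9 muscles, ordered by mean, with a line for each of the 4 animals. The line of animal 2 is the lowest except in LL. The lines of animals 2, 3 and 4 fall from GB to RF and on to SS, whereas that of animal 1 rises from 27.4 CPM in GB to 49.1 CPM in RF before it falls to 10.1 CPM in SS.

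As sums of squares of log2 CPM, muscle took 80.6% of the variation of the locus over the 36 samples, animal 11.1%, and 8.23% was left. The medians over all tested loci were 28.7% for muscle and 15.4% for animal. The 36 samples include ST and SS, on which the locus was chosen, so its large muscle share there was partly set by that choice. Among the 7 muscles other than ST and SS the shares of the locus were 58.0% for muscle and 23.1% for animal, against medians of 26.4% and 17.8%. Among the 6 muscles without RF they were 34.1% and 42.9%, against medians of 25.0% and 19.6%, so that animal took more of the variation of the locus than muscle there. The biological coefficient of variation of the locus, which is its spread beyond counting error within the fit, was 0.292, above the 0.195 of the trend at its level. At the counts of the upper muscles the counting error was small beside this spread, while in SS it reached 25.8% of the value in animal 2.

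A list of slow-fibre genes was set beside the locus, and whether the locus followed fibre type was not tested. Of the 13 genes of that list, 8 were paired with loci. MYL2 and MYH7B, which are on the list and have positions in the study, were not among the 8. The pairing rests on positions listed for genes that differed in these same samples, so their difference between ST and SS is not independent evidence. They encode slow troponins (TNNT1, TNNC1, TNNI1), the slow light chain MYL3, tropomyosin TPM3, the slow calcium pump ATP2A2, calsequestrin CASQ2 and the Z-disc protein MYOZ2, and they also show that the samples hold skeletal muscle. All 8 were called higher in SS than in ST, where 1.52% of all loci were, with a median log2FC (ST minus SS) of -3.26 against -0.0097 over all loci. In the joint test of all 9 muscles 8 of the 8 passed an FDR of 0.01, as did 8.94% of all loci. That test includes ST and SS, so its count, like that between ST and SS, was largely set by the pairing. In the joint test of the 7 other muscles 7 of the 8 passed, and 3.61% of all loci did. The 8 were paired through lists of genes that differ between muscles of these animals. The share over all loci is therefore not a like background for them, and this count is a description too.

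The levels of these genes are given beside those of the locus as a description. The mean of TNNT1 was 224 CPM in SS and 255 CPM in PM (log2FC, SS minus PM, -0.21, FDR 0.774), whereas the CHI3L1 locus stood at 4.72 and 42.7 CPM in these muscles. Between SS and PM, 1 of the 8 slow-fibre loci was called, namely MYL3, at 57.3 and 185 CPM, where 0.907% of all loci were called. ST had the lowest mean of the 9 muscles for each of the 8, with 23.1 CPM for TNNT1 and 55.8 CPM for ATP2A2, and it was close to GM for the CHI3L1 locus, at 59.7 and 60.4 CPM. The low slow-fibre values in ST and the levels of the locus in ST and SS were both part of how these loci were chosen, and nothing is drawn from them.

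The same comparison can be made in pairs of muscles that the choice of the locus did not use. Between RF and LL, where the locus was called, 0 of the 8 slow-fibre loci were called by edgeR's quasi-likelihood test, which is near the share of 0.778% over all loci, and ATP2A2 had the smallest FDR, 0.0968. Their mean levels in RF and LL were 85.5 and 73.7 CPM for TNNT1 and 211 and 121 CPM for ATP2A2. Between LL and PM, 7 of the 8 were called higher in PM, against 0.369% of all loci, the exception being CASQ2. The locus was 1.88-fold higher in LL in this pair, in 4 of 4 animals, and of the alternatives tried it was called in 1, when animal 1 was left out (log2FC 1.10, FDR 0.00499). Over the 36 samples the Pearson r of log2 CPM between the locus and the 8 genes ran from -0.50 to -0.14, and over the 28 samples without ST and SS from -0.29 to 0.43. These r describe samples that share animals and muscles.

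Of the 14 fast-fibre genes only PVALB, the calcium buffer parvalbumin, could be paired. Its level was 14.6, 8.15, 3.16 and 3.27 CPM in RF and 17.4, 2.18, 1.24 and 1.73 CPM in SS, so that animal 1 was the highest in both muscles, as it was for the CHI3L1 locus. In ST it was 7.70, 6.97, 6.10 and 1.93 CPM, close to SS in its mean, although the CHI3L1 locus was high in ST. In LL it was at or below 0.356 CPM in every animal, under the floor. Its means in SM, GB, GM, AD and PM ran from 0 to 0.662 CPM. By edgeR's quasi-likelihood test PVALB was called higher in RF than in LL (log2FC 5.59, FDR 9.11e-07), as were 0.337% of all loci. It was also called higher in SS than in PM (log2FC 4.81, FDR 5.8e-05), as were 0.385%. PVALB was paired through the study's comparison of SM and SS, so its SS values are not independent. Its r with the locus was -0.42 over the 36 samples and -0.55 without ST and SS. With the means of animals and of muscles taken out it was 0.63.

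The locus whose pattern was most like that of CHI3L1, by the Pearson r of log2 CPM over the 36 samples, was HOXD8 on chromosome 2, a homeobox gene of the cluster that patterns the body axis and the limbs (r = 0.848). The next were an unnamed gene on chromosome 9 (ENSOARG00000017789, r = 0.837), SMYD2 on chromosome 12 (r = 0.825), and unnamed genes on chromosomes 11 (ENSOARG00000005506, r = 0.822) and 21 (ENSOARG00000009602, r = 0.820). SMYD2 encodes a lysine methyltransferase that also binds sarcomere proteins. Over all other tested loci the median r was -0.029 and the 99th percentile 0.589, and 10 loci were above 0.8. The 36 samples include ST and SS, on which the locus was chosen, and the study also lists HOXD8 between them. These r were therefore partly set by that choice, and their order is a description only.

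HOXD8 had 0.789, 1.16, 2.99 and 0.726 CPM in animals 1 to 4 in RF and 0.229, 0.290, 0.354 and 1.54 CPM in SS, while its means in the other 7 muscles lay between 7.39 CPM in GB and 14.0 CPM in LL. RF and SS were thus the lowest muscles for both loci, and LL had the highest mean for both. The HOXD8 values of animals 1, 2 and 3 in SS lay under the floor of their libraries. In RF, HOXD8 was highest in animal 3, whereas the CHI3L1 locus was highest in animal 1. Over the 9 muscle means r was 0.971, but with the means of animals and of muscles taken out it was 0.170. For ENSOARG00000017789 the r with both means taken out was 0.682. Without ST and SS, r over 28 samples was 0.745 for HOXD8 and 0.703 for ENSOARG00000017789. The highest r of any other locus with CHI3L1 was 0.765 there, so HOXD8 was not the first in those samples.

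SMYD2 moved over a narrower range, with its lowest mean in SS, 16.3 CPM in RF and 31.3 CPM in LL. The loci least like CHI3L1 were ENSOARG00000008370 on chromosome 11 (r = -0.803), ENSOARG00000020761 on chromosome 1 (r = -0.787) and ENSOARG00000005365 on chromosome 23 (r = -0.747). Each of them had its highest mean in SS, at 55.6, 19.8 and 9.76 CPM.

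**Figure D4:**
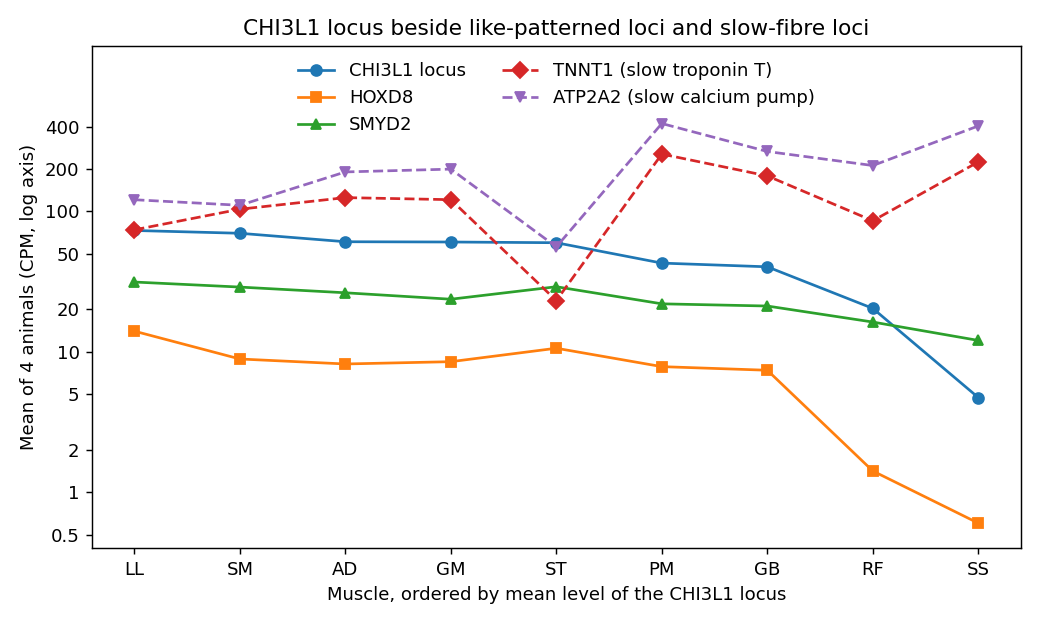
Mean of 4 animals (CPM, log axis) in the 9 muscles, ordered by the mean of the CHI3L1 locus, for that locus, HOXD8 and SMYD2 (solid lines) and for the slow-fibre loci TNNT1 and ATP2A2 (broken lines). The solid lines end at their lowest values in RF and SS, whereas TNNT1 and ATP2A2 have their lowest mean in ST and stand at 255 and 421 CPM in PM.

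The nearest loci on chromosome 12 were described beside the locus. Of the loci that could be tested, the 3 before the locus and the nearest 5 after it were taken, and their r with it ran from -0.44 to 0.50. In the joint test of the 7 muscles, 0 of these 8 passed an FDR of 0.01 in edgeR's quasi-likelihood test, where 3.61% of all loci did, so that this count is near the background. The nearest of them after the locus, ENSOARG00000001574, also had its lowest mean in SS, at 12.3 CPM, and its highest in SM, at 41.3 CPM. Its r with the locus was 0.83 over the 9 muscle means and 0.294 over the 36 samples, and its FDR among the 7 muscles was 0.408. The merged locus of ENSOARG00000001858 and ENSOARG00000004947, farther on, likewise ran from 81.3 CPM in SS to 125 CPM in LL (r = 0.666 over the muscle means). The nearest before it, ENSOARG00000001036, stayed between 2.23 CPM in SS and 3.34 CPM in RF (FDR 0.984). The next after, ENSOARG00000001637, went the other way in its means, with 26.3 CPM in SS, 21.8 CPM in RF and 0.974 CPM in ST (FDR 0.0840). Its SD was 29.7 CPM in SS and 17.3 CPM in RF (n = 4), and animal 2 alone held 68.9 CPM in SS.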

How the data were processed

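The authors aligned paired reads to Oar_v3.1 with TopHat2 2.0.13, merged Cufflinks 2.2.1 assemblies with the Ensembl annotation and counted reads per merged locus with htseq-count, whose strand setting is not stated. The deposited values are raw counts for 36 samples, of 9 muscles and 4 animals. Repeated entries of loci with several identifiers (394) were removed. Sequencing used 4 lanes with 9 samples in each. The lane of each sample is not given in the sources used here, so its part was not tested.

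Loci were filtered with filterByExpr by muscle (12461 kept) and scaled by TMM. All 36 samples entered 1 negative binomial model, with terms for muscle and animal, in edgeR 4.0.16 (R 4.3.3). Its quasi-likelihood test was used, and p-values were adjusted by Benjamini-Hochberg over all loci of a comparison. Log2 CPM used a prior count of 2. The animal block takes the replicate number in a sample title as the lamb, since each lamb gave all 9 muscles. The titles themselves do not say that a number marks the same lamb in every muscle. Within a muscle, 54 of 54 pairs of libraries differed by more than sampling noise (chi-square per degree of freedom at least 5.12). The procedure was tested on simulated data. Alternatives included DESeq2 1.42.0, other filters and scalings, and leaving out animals.

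The locus and the gene lists were chosen with earlier results of these data known. The loci named are the CHI3L1 locus, its nearest tested neighbours, the 5 with the highest and the 3 with the lowest r with it, and list members. Symbols were paired only through positions in the study's tables: 9 of 126 list symbols, in 2 of 14 lists (slow fibre and fast fibre). The lists of chitinase family, CHI3L1 receptors, myosin binding proteins, glycolysis and of other cell types had 0 paired symbols and were not analysed here.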

Additional observations from a re-analysis of the deposited data

Results flagged for a closer look

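In RF, animal 1 stood at 49.1 CPM at the CHI3L1 locus, and its distance to the next animal was 0.833 of the range of the 4 values. In SS, animal 1 stood at 10.1 CPM, with a corresponding share of 0.836. Both exceed Dixon's 95% critical value for 4 samples, which chance passes in about 1 in 20 groups, and 2 of the 9 muscles were flagged. On the log2 scale the shares were 0.650 and 0.709, below that value. Over all tested loci, animal 1 was the highest and stood apart in this way in 1.18% of loci in RF and 1.44% in SS. The RF library of animal 1 had a mean r of 0.913 with the other RF libraries, which had 0.922 to 0.924 by the same measure, and that of SS had 0.918, against 0.929 to 0.933. The part of these libraries in the values of the locus was not tested beyond leaving each of them out.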

How the results depend on the processing

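The fit uses animal as a block, as the study did. Without the replicate block, the FDR among the 7 muscles was 0.122 and 0 of the 21 pairs (and 0 of the 10 without SM and LL) were called. LL over RF then had an FDR of 0.0411. Of the 10 pairs without SM and LL, 4 were called with no filter on low counts. With each animal left out in turn, or the RF library of animal 1, the FDR among the 7 muscles ran from 1.63e-07 to 0.0294, that among animals from 2.70e-06 to 0.112, the called pairs from 1 to 7 of 21 and from 0 to 4 of 10, and the loci shared with the 5 most like the locus from 1 to 4. These shared loci were 1 by Spearman's rho, 2 over muscle means and 3 with animal means taken out. A robust dispersion, raw library totals and leaving out the single RF or SS library of animal 1 were chosen after seeing the data. A robust dispersion gave 2 of 21 and 0 of 10 pairs. Raw library totals moved ST against GM to -0.46 and ST against PM to 0.14, and left 4 of 21 pairs called. Without RF animal 1 or SS animal 1, RF over SS lay at 1.37 or 2.49. The cause of these changes was not tested. Over planned and added alternatives together, LL over RF was called in 16 of 17, with a log2FC of 1.76 to 2.91, and no alternative reversed a called pair. DESeq2 called 5 of 21 pairs, adding PM over RF. In SS, 15 to 44 counts limit the precision.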
